A study of Mus musculus with 5 samples.

Results

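Lysosomes are acidic organelles that break down material a cell has eaten or recycled, and macrophages, which clear dead cells and lipoproteins from the artery wall, are rich in them. A proton pump, the vacuolar ATPase (V-ATPase), acidifies the lumen: its V1 sector in the cytosol splits ATP and its V0 sector in the membrane carries protons. Soluble hydrolases in the lumen take glycans, lipids and proteins apart, and membrane proteins protect the organelle, move ions and export the products. The genes described here are 53 genes of these 3 kinds, chosen by name with earlier results of these data known. Of these, 10 encode membrane proteins and transporters, 28 encode luminal enzymes and their cofactors, and 15 encode subunits or accessory proteins of the V-ATPase. All 53 were found among the 41388 gene IDs of the deposited tables, and all 53 passed the filter on low counts.

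Macrophages were sorted from the mouse aorta for 5 libraries, 3 from the adventitia (the outer layer) and 2 from the intima (the inner layer). The adventitia libraries came from ApoE-/- mice of the C57BL/6 strain kept on high fat food for 28 weeks (the group is described as 6 mice), and their cells were live CD64+ cells of the adventitia of the whole aorta, abdominal part included. The intima libraries came from C57BL/6 mice, 5 animals pooled for each, and their cells were live CD64+ CD11c+ MHC II+ cells of the thoracic aorta after the adventitia had been stripped. No age is given, nor any diet or ApoE genotype for the intima mice. Layer, aortic segment and gate differ together, and genotype and diet may too, so their parts cannot be told apart, and nor can fewer cells of a type and less RNA per cell. The labels do not say whether the adventitia libraries came from separate mice, so p-values measure only the spread between these libraries, which may be partly technical.

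The libraries held 3941381 to 20806925 counted reads, with the adventitia libraries the shallower. A gene had at least 1 read for 23289 to 25738 IDs in the adventitia libraries but only for 17489 and 16374 in the deeper intima libraries. All 10 macrophage markers were read in every library, with sums of 19381 to 29019 CPM per adventitia library against 27780 and 18358 CPM per intima library. None was called by edgeR, but single markers went both ways. Both intima libraries were above the adventitia for 2, Adgre1 and Cx3cr1 (72.6 to 197 CPM against 440 and 768 CPM). They were below it for 2, C1qa and Itgam (287 to 425 CPM against 197 and 77.6 CPM), and 6 overlapped. Of all genes tested, 17.7% were above and 23.2% below in this way. CPM is the read count scaled to a common library total, which TMM scaling has adjusted so that most genes match. Of 8 endothelial markers 3 were called higher in the intima, and both intima libraries were above the adventitia for 7 (sums of 741 and 772 CPM against 25.4 to 49.1 CPM). The eighth, Kdr, was lower in both intima libraries, at 0.235 and 0.0504 CPM against 1.09 to 1.81 CPM. Of 8 smooth muscle markers 1 of the 6 tested was called higher (sums of 345 and 96.1 CPM against 14.3 to 49.9 CPM). Both intima libraries were above the adventitia for 2 of the 6, Acta2 and Tagln, and below it for Myh11. Des, which was not tested, was also below. Of 8 fibroblast markers 1, Lum, was called lower (sums of 424 and 1387 CPM against 716 to 1726 CPM). Gsn alone gave 1163 CPM of the sum in intima replicate 2. Both intima libraries were below the adventitia for 4, Dcn, Lum, Pdgfra and Dpt. In edgeR 5 of the 8 had an unadjusted p under 0.05, these 4 and Gsn, which was higher. Markers of B cells summed to 203 to 777 CPM against 1127 and 930 CPM, most of it Ighm. T cell markers summed to 1.53 to 8.28 CPM against 0.157 and 39.98 CPM, and neutrophil markers to 49.9 to 92.1 CPM against 5.49 and 87.5 CPM, with Ly6g and Mpo under 1 CPM. None of the B cell, T cell or neutrophil markers tested was called by edgeR. An unadjusted p under 0.05 in edgeR was seen for 2, 1 and 1 of them. Of these, Ighm was higher in the intima, and Ms4a1, Cd2 and S100a8 were lower. Of all genes tested, 8.16% were higher in the intima and 14.3% lower at that level. The part of these cells in the lysosomal results was not tested.

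Many lysosomal genes are known targets of the transcription factor TFEB and its relatives, which bind E-box words, of which CACGTG is the central part. RefSeq promoter windows (GRCm38.p6, 250 bases before to 50 after a start site) were found for 46 of the 53 genes. The word CACGTG, which reads the same on both strands, was in the windows of 13 of them (28.3%) and of 8.09% of all 27025 genes with a window. The longer word TCACGTGA, which contains CACGTG, was in 6 of the 46 (13%) and in 1.12% of all genes. A still longer word, which contains TCACGTGA, was in 0 of the 46 and in 0.37% of all genes. For a word this rare, a count of 0 among 46 genes decides little. The excerpts below, each 27 to 77 bases cut from a window around its matches, are shown because they hold CACGTG more than once or hold TCACGTGA. Capitals mark TCACGTGA where it is complete and CACGTG elsewhere, and each is written 5′ to 3′ on the strand of its gene.
Lamp1, chr8:13159080-13159156, plus strand: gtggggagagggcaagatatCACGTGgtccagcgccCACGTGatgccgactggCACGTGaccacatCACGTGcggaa
Mcoln1, chr8:3500428-3500484, plus strand: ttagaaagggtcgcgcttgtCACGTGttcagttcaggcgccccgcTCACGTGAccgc
Gla, chrX:134601189-134601252, minus strand: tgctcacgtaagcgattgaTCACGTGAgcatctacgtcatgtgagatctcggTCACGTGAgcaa
Atp6v0b, chr4:117887337-117887385, minus strand: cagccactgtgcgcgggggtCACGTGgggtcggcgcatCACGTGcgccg
Clcn7, chr17:25133375-25133404, plus strand: tCACGTGggcaccgatgatagaTCACGTGA
Atp6v0d1, chr8:105566061-105566087, minus strand: gagccaggccctactgcggTCACGTGA
Atp6v0e, chr17:26676379-26676405, plus strand: cggggctttagcgcgccgaTCACGTGA
Atp6v1a, chr16:44139380-44139410, minus strand: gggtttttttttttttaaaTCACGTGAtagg
Lamp1 holds 4 copies of CACGTG, and Mcoln1, Gla, Atp6v0b and Clcn7 hold 2 each. The other genes with the word are Glb1, Naglu, Gaa, Lgmn and Arsa. A match is a description of these letters and not a site of binding. The 13 genes with the word had a median log2 difference (always intima minus adventitia) of 0.32, and the 33 with a window but without the word had one of 0.63. Both intima libraries were above the adventitia for 6 of the 13 and for 15 of the 33, where 17.7% of all genes tested were.

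No lysosomal gene of the 53 was called different between intima and adventitia in either direction by edgeR's quasi-likelihood test at a Benjamini-Hochberg adjusted p under 0.05. Across all 13408 genes tested, 0.671% were called, 0.522% higher and 0.149% lower in the intima. Shares over all genes, here and elsewhere, were not matched to the levels of the 53, and the part of level was not tested. At an unadjusted p under 0.05, 10 lysosomal genes were higher in the intima and 0 lower, where 8.16% and 14.3% of all genes tested were: Laptm5, Clcn7, Gusb, Hexa, Man2b1, Galns, Fuca1, Psap, Ppt1 and Tpp1. DESeq2 with its own filter called 0 of the 53 (2.96% of its genes higher and 9.8% lower), while DESeq2 on the genes edgeR tested (4.04% of genes called higher, 5.86% lower) and limma voom (1.6% higher, 4.66% lower) each called 1, Ppt1. Every gene with a read in place of the filter gave 5 calls, Laptm5, Man2b1, Galns, Psap and Ppt1, all higher in the intima, where 0.986% of all genes were called higher and 0.234% lower. Without intima replicate 1, which leaves 1 intima library, there were 4 calls, Laptm5, Man2b1, Galns and Psap, all higher, where 1.47% of all genes were called higher and 1.03% lower. Since 5 libraries split into 3 and 2 in only 10 ways, no exact permutation test of 1 gene (two-sided) could reach a p under 0.1.

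Because the 53 genes were chosen with earlier results of these data known, setting them beside all genes is a description only. The log2 difference was above 0 for 42 of the 53 genes with TMM scaling, and for 53.4% of all genes tested. It was above 0 for 38 genes with RLE scaling (49.7% of all), 37 with library size alone (47.7%), 32 with thinned counts (48.1%) and 28 with upper-quartile scaling (40.7%). Both intima libraries were above all 3 adventitia libraries for 24 of the 53 genes and below them for 1 (25 in all), where 17.7% and 23.2% of all genes tested were (40.9% in all). That count depended on the scaling. With RLE scaling it was 19 higher and 3 lower, against 15.5% and 24.7% of all genes. With upper-quartile scaling it was 13 and 4, against 10.7% and 30.1%, and with library size alone 15 and 3, against 14% and 26.4%. With counts thinned to the smallest library it was 15 and 4, against 14% and 20.3%. Leaving out intima replicate 2 gave 38 higher and 5 lower, against 31.6% and 43.8% of all genes. Leaving out intima replicate 1 gave 30 and 11, against 32.4% and 43.8%. With 1 intima library, ranges of any gene are less likely to overlap. Under TMM, RLE, upper-quartile scaling, library size alone and thinned counts alike, 12 genes kept both intima libraries on top: Laptm5, Glb1, Gusb, Hexa, Man2b1, Naglu, Psap, Gm2a, Ppt1, Tpp1, Acp2 and Atp6v1c1. Neu1 was the 1 gene that stayed below. These are 22.6% and 1.89% of the 53, where 11.8% and 14.2% of all genes with a value under each scaling kept that order. Of the 12 genes, 10 encode luminal proteins.

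The median log2 difference was 0.61 over the 53 genes and 0.14 over all genes tested. With upper-quartile scaling both moved down together, to 0.13 and -0.35. With every gene with a read kept, they were 0.75 and -1.86. The median of all genes thus depends on which weakly read genes are kept. The 53 genes took 1.44, 1.45 and 1.55% of all counted reads in the adventitia libraries and 1.75 and 2.22% in the intima libraries, with no overlap between the groups. Summed over the 53 genes, the adventitia mean was 13968 ± 1584 CPM (SD, n = 3) and the intima mean 21891 ± 1874 CPM (SD, n = 2).

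**Figure D1:**
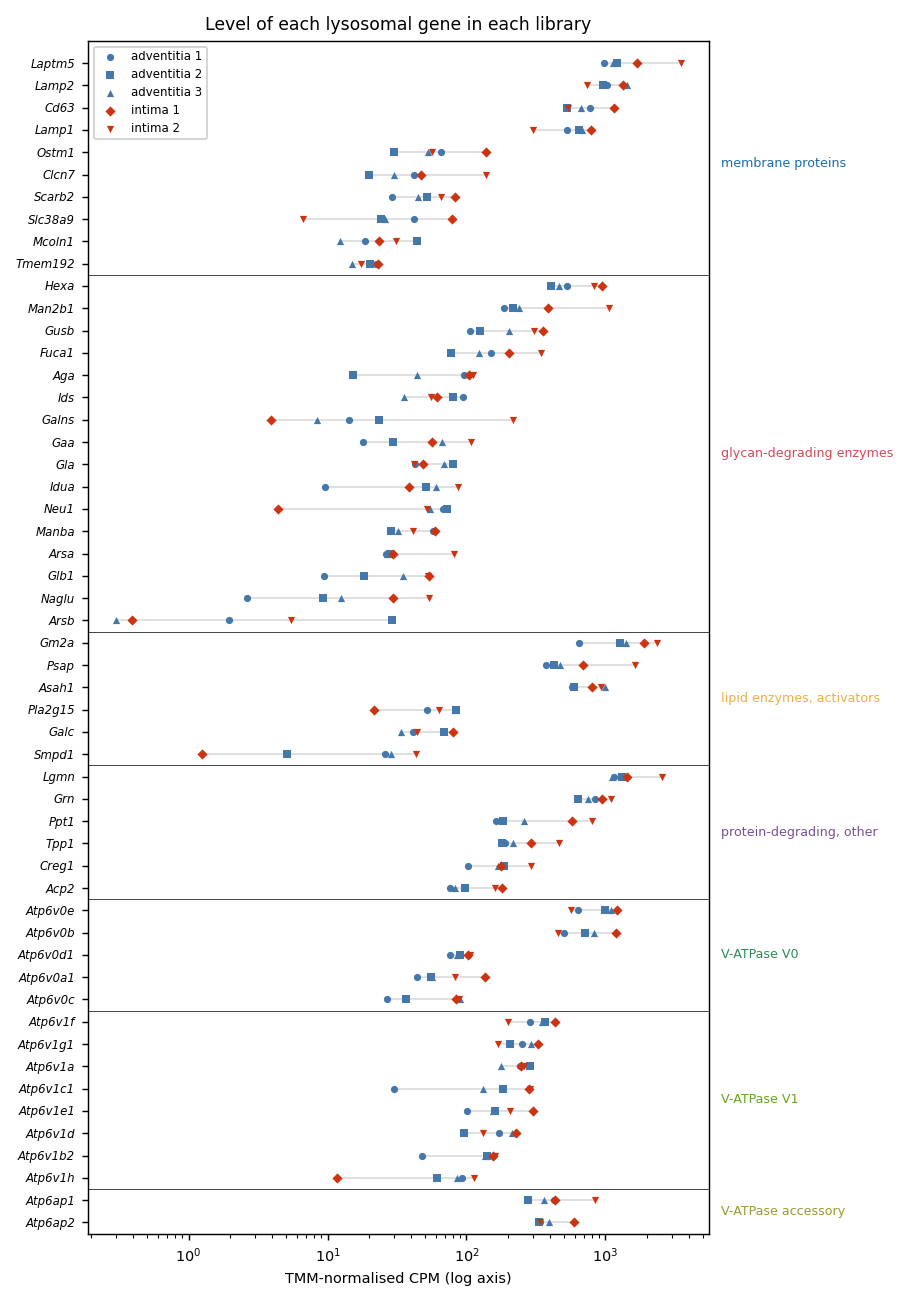
Level of each of the 53 genes in each library (x axis, TMM-normalised CPM on a log axis; blue symbols are the 3 adventitia libraries and red symbols the 2 intima libraries), ordered by role and then by mean level. Hexa, Man2b1, Ppt1, Psap and Laptm5 have both red symbols to the right of all blue ones, while Galns, Neu1, Smpd1, Arsb, Atp6v1h and Slc38a9 have their red symbols far apart.

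The 28 luminal enzymes and cofactors had a higher median log2 difference than the membrane or V-ATPase genes. It was 0.93, and 23 were above 0 and 5 below. Summed, they reached 5638, 6324 and 7073 CPM per adventitia library and 9476 and 13841 CPM per intima library. The intima libraries were both higher, and the gap between them was larger than that between any 2 adventitia libraries. The median of these genes stayed above 0 under all 5 scalings, from 0.45 with upper-quartile scaling to 0.93 with TMM. None of the 28 was called by edgeR.

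Among the 16 enzymes that cut glycans, which include the exoglycosidases and the sulfatases, the median log2 difference was 1.04. Hexa, the alpha subunit of beta-hexosaminidase, had the highest level per length of these, with a mean of 331 RPKM (reads scaled by exon length and library total, as deposited). It had adventitia levels of 532, 403 and 461 CPM and intima levels of 947 and 825 CPM. The ranges do not overlap, and the log2 difference was 0.93 (SE 0.39, edgeR adjusted p = 0.183, n = 3 and 2). Man2b1, the lysosomal alpha-mannosidase, had adventitia levels of 185, 216 and 238 CPM and intima levels of 383 and 1061 CPM. Both intima libraries were above, and they differed from each other 2.77-fold. Gusb, beta-glucuronidase, was at 105, 124 and 201 CPM against 355 and 305 CPM.

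Fuca1, alpha-L-fucosidase, had adventitia levels of 151, 77.6 and 124 CPM and intima levels of 201 and 346 CPM. Glb1, beta-galactosidase, was at 9.41, 18.4 and 35.1 CPM against 54.1 and 52.5 CPM. Naglu, which removes N-acetylglucosamine from heparan sulfate, was at 2.63, 9.32 and 12.5 CPM against 29.5 and 53.4 CPM. For each of these 3 genes both intima libraries were the highest of the 5, and for Naglu the adventitia libraries themselves spread widely. The ranges of Arsa, arylsulfatase A, and Aga, which cleaves asparagine-linked sugars, also did not overlap, with 26.3 to 28.2 against 29.5 and 81.3 CPM and 15.3 to 96.5 against 104 and 112 CPM.

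Galns, the sulfatase of keratan sulfate, had the largest positive difference of all 53 genes, but it rested on 1 library. The adventitia libraries had 14.2, 23.4 and 8.41 CPM, while intima replicate 1 had 3.92 CPM and replicate 2 had 214 CPM. The intima libraries lay on either side of the adventitia range. The log2 difference was 2.83 (SE 1.13, edgeR adjusted p = 0.171). It was 3.67 without intima replicate 1 (adjusted p = 0.0244 in edgeR, where the spread of the lone intima library was taken from the adventitia) and -1.88 without intima replicate 2.

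Neu1, the lysosomal sialidase, went the other way, with 67.6, 72.0 and 54.8 CPM per adventitia library against 4.39 and 52.3 CPM per intima library. Intima replicate 2 was just under the lowest adventitia library, and replicate 1 was far below. Arsb, arylsulfatase B, had the largest negative log2 difference, -1.83 (SE 2.08, edgeR adjusted p = 0.671), at 1.97, 29.02 and 0.3002 CPM against 0.392 and 5.44 CPM. A single adventitia library was high, and without adventitia replicate 2 the log2 difference was 1.34. An antisense gene covers 48.8% of the exon bases of Arsb, 18.8% of Arsa, 12.6% of Acp2 and 11.8% of Atp6v0b. No single antisense gene covers more than 5.69% of Ostm1, Idua, Ppt1 or Grn, and Tmppe shares 7.31% of Glb1 on the same strand. Without a stated strand setting the reads of such antisense pairs cannot be told apart. The other 5 genes of this kind, Gaa, Gla, Idua, Ids and Manba, had overlapping ranges and levels between 9.63 and 107 CPM.

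Of the 6 genes for lipid breakdown, the ranges of both cofactors do not overlap and those of the 4 enzymes do. Psap encodes the precursor of the saposins, which present sphingolipids to their hydrolases. Psap had adventitia levels of 376, 423 and 475 CPM and intima levels of 686 and 1634 CPM, with both intima libraries above and intima replicate 2 the highest by far. Its log2 difference was 1.45 (SE 0.45, edgeR adjusted p = 0.113). Gm2a, the activator that presents GM2 ganglioside to beta-hexosaminidase, had the highest level per length of the 6, with a mean of 356 RPKM. It was at 645, 1280 and 1409 CPM against 1897 and 2345 CPM, a log2 difference of 0.93 (SE 0.45, edgeR adjusted p = 0.245), and its ranges do not overlap.

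The lipid enzymes lay at lower levels, apart from acid ceramidase. Asah1, acid ceramidase, was at 571, 589 and 984 CPM against 798 and 927 CPM, and Galc, galactosylceramidase, at 33.7 to 68.5 CPM against 80.0 and 44.2 CPM. Smpd1, acid sphingomyelinase, was at 25.8, 5.14 and 28.8 CPM in the adventitia, while intima replicate 1 had 1.25 CPM and replicate 2 had 43.3 CPM. Pla2g15, a lysosomal phospholipase, had the lowest difference of this set, -0.78 (SE 0.67, edgeR adjusted p = 0.550), at 52.1, 84.6 and 82.5 CPM against 21.5 and 63.3 CPM. The median of the 6 was 0.32 (0.14 for all genes). With upper-quartile scaling it was -0.16 (-0.35 for all genes) and with thinned counts -0.10 (-0.06 for all genes).

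All 6 genes for protein turnover and other luminal proteins had a log2 difference above 0, with a median of 0.85 and 5 whose ranges do not overlap. Ppt1 removes palmitate from proteins and had the smallest adjusted p of the 53 genes. It lies on chromosome 4 from 122836242 to 122859175 in GRCm38. Ppt1 had adventitia levels of 164, 183 and 261 CPM and intima levels of 578 and 797 CPM, so the lower intima library was more than 2 times as high as the highest adventitia library. The log2 difference was 1.76 (SE 0.42, edgeR adjusted p = 0.0868, 0.0371 in limma voom and 0.0192 in DESeq2 on the same genes).

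Lgmn, legumain or asparaginyl endopeptidase, had the highest level per length of this set, a mean of 641 RPKM. It had adventitia levels of 1144, 1306 and 1115 CPM and intima levels of 1439 and 2539 CPM, a log2 difference of 0.74 (SE 0.42, edgeR adjusted p = 0.323). Intima replicate 1 was just above the adventitia range and replicate 2 well above it. Tpp1, tripeptidyl peptidase 1, was at 182 to 216 CPM against 292 and 463 CPM, and Acp2, lysosomal acid phosphatase, at 76.4 to 97.6 CPM against 181 and 161 CPM. Grn, progranulin, was at 634 to 838 CPM against 950 and 1095 CPM. Creg1, a glycoprotein of the endolysosomal system, was the exception, at 102 to 187 CPM against 177 and 290 CPM with overlapping ranges.

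**Figure D2:**
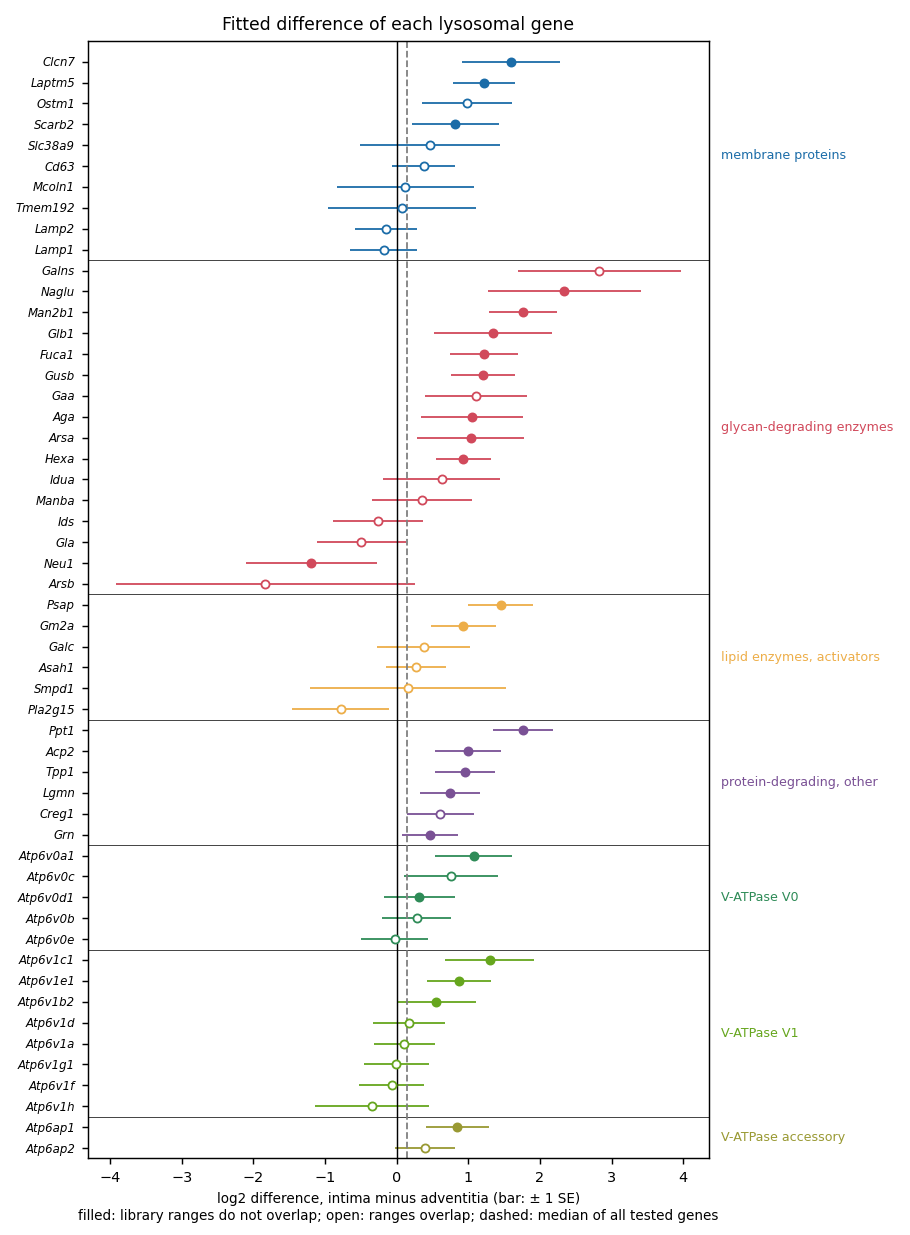
Fitted log2 difference of each gene (x axis, intima minus adventitia, with TMM scaling; bars are 1 SE; filled points have library ranges that do not overlap and open points ranges that do), ordered by role. The dashed line is the median of all genes tested, 0.14. Most luminal genes lie to its right, while V-ATPase genes lie closer to it. With upper-quartile scaling or thinned counts the V-ATPase median moves below 0, as does that of all genes (-0.35 and -0.06). No point passed the test across all genes in edgeR.

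The 10 membrane proteins had a median log2 difference of 0.42 (0.14 for all genes). With upper-quartile scaling it became -0.05 (-0.35 for all genes). Cd63, a tetraspanin of late endosomes and lysosomes, had the highest level per length of all 53 genes, a mean of 700 RPKM. It had adventitia levels of 769, 530 and 664 CPM and intima levels of 1158 and 540 CPM, a log2 difference of 0.38 (SE 0.44, edgeR adjusted p = 0.686), and the second intima library lay within the adventitia range. Lamp1, whose protein lines the inside of the lysosomal membrane with sugar chains, was at 529, 650 and 673 CPM against 786 and 303 CPM. Its intima libraries lay on both sides of the adventitia libraries, and its log2 difference was -0.18 (SE 0.47, edgeR adjusted p = 0.873). Lamp2, its close relative, was at 967 to 1438 CPM against 1328 and 738 CPM, with intima replicate 1 inside the adventitia range and replicate 2 below it.

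Laptm5, a lysosomal membrane protein of blood-lineage cells, differed from the LAMP genes. Laptm5 had adventitia levels of 976, 1213 and 1133 CPM and intima levels of 1681 and 3474 CPM, with both intima libraries above. Clcn7, the chloride and proton exchanger of lysosomes, had the largest positive difference of the membrane genes, 1.59 (SE 0.68, edgeR adjusted p = 0.197). It was at 41.8, 19.9 and 30.3 CPM against 47.0 and 138 CPM, with replicate 1 of the intima only just above the adventitia range.

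Ostm1, the partner subunit of Clcn7, was at 30.2 to 65.9 CPM against 139 and 56.7 CPM, so only 1 intima library was above the adventitia. Scarb2, the carrier that brings glucocerebrosidase to lysosomes, was at 29.3 to 52.1 CPM against 82.2 and 66.01 CPM without overlap. Mcoln1, the calcium channel TRPML1, and Tmem192 had overlapping ranges within 12.3 to 44.3 CPM. Slc38a9, an arginine-sensing transporter of the nutrient pathway, was at 42.2, 24.3 and 26.0 CPM in the adventitia, while intima replicate 1 had 78.5 CPM but replicate 2 only 6.65 CPM.

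**Figure D3:**
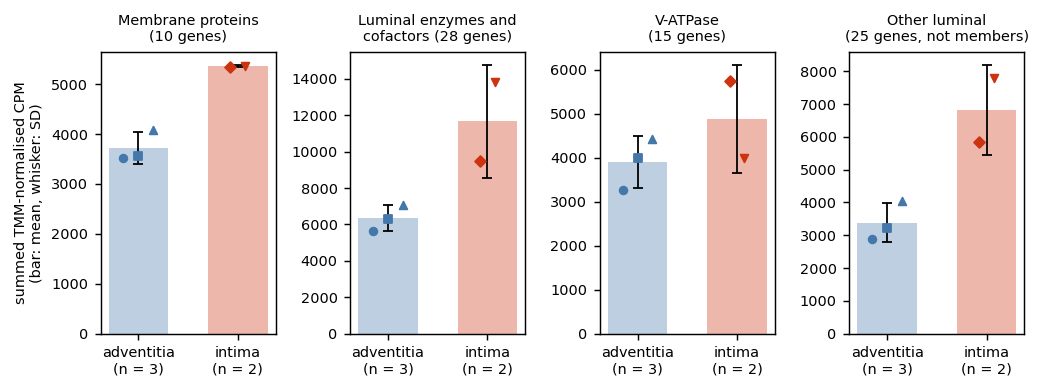
Summed level (y axis, TMM-normalised CPM) of the membrane, luminal and V-ATPase genes, and of 25 further genes listed as luminal, outside the set. Bars are means, whiskers SD and symbols single libraries, in adventitia (n = 3) and intima (n = 2). The intima libraries lie above the adventitia libraries in the membrane and both luminal panels, and in the V-ATPase panel intima replicate 2 (4005 CPM) lies within the adventitia range of 3273 to 4435 CPM.

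The 15 V-ATPase genes together gave adventitia sums of 3273, 3998 and 4435 CPM and intima sums of 5744 and 4005 CPM. The ranges overlap. Their median log2 difference was 0.32 (0.14 for all genes). Thinned counts gave -0.05 (-0.06 for all genes) and upper-quartile scaling -0.17 (-0.35 for all genes). Ranges did not overlap for 6 of the 15 with TMM, all higher in the intima, and for 2 higher and 1 lower with upper-quartile scaling.

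In the V0 sector, Atp6v0b and Atp6v0e were by far the most abundant per length, with means of 353 and 271 RPKM. Atp6v0b, a proteolipid of the proton-carrying ring, had adventitia levels of 507, 716 and 827 CPM and intima levels of 1198 and 459 CPM. Its log2 difference was 0.28 (SE 0.48, edgeR adjusted p = 0.80), and the intima libraries flanked the adventitia range. Atp6v0e, a small membrane subunit, had the same pattern, at 633, 995 and 1087 CPM against 1208 and 566 CPM, with a log2 difference of -0.03 (SE 0.46, edgeR adjusted p = 0.983).

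Atp6v0a1, an isoform of the large subunit that guides protons through the membrane, had the largest difference of V0, 1.08 (SE 0.54, edgeR adjusted p = 0.264). It had adventitia levels of 44.2, 55.8 and 56.5 CPM and intima levels of 137 and 83.2 CPM, with no overlap. Atp6v0d1, which links V0 to the central stalk, differed little but without overlap, at 76.6 to 89.3 CPM against 102 and 107 CPM. Atp6v0c, the main ring proteolipid, was at 26.7, 36.5 and 89.5 CPM against 84.3 and 87.8 CPM. Cd63 and Atp6v0c have pseudogenes in the tables with 883 and 118 reads over the 5 libraries, so part of their reads may be counted there or not at all.

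In the V1 sector the difference ran from -0.34 to 1.30. Atp6v1f, a stalk subunit, had the highest level per length, a mean of 306 RPKM. It had adventitia levels of 287, 366 and 350 CPM and intima levels of 437 and 200 CPM, a log2 difference of -0.07 (SE 0.45, edgeR adjusted p = 0.953). Atp6v1c1, the subunit that joins the sectors and is released when the pump comes apart, was at 30.2, 183 and 133 CPM against 283 and 285 CPM. Its intima libraries were nearly equal and above the adventitia, within which replicate 1 was low, and its log2 difference was 1.30 (SE 0.62, edgeR adjusted p = 0.245).

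Atp6v1a, the catalytic subunit, was close to level, at 242, 287 and 177 CPM against 249 and 258 CPM. Atp6v1b2, which alternates with it in the ring of V1, was at 47.9, 141 and 135 CPM against 156 and 162 CPM. Atp6v1e1, a stator subunit, was at 100 to 159 CPM against 299 and 207 CPM without overlap, whereas Atp6v1d and Atp6v1g1 overlapped. Atp6v1h, a regulatory subunit, was at 92.3, 61.7 and 85.3 CPM in the adventitia, while intima replicate 1 had 11.8 CPM and replicate 2 had 114 CPM, and its log2 difference of -0.34 (SE 0.80, edgeR adjusted p = 0.857) turned to 0.38 without intima replicate 1. Of the accessory proteins, Atp6ap1 was at 426, 275 and 360 CPM against 431 and 841 CPM, a log2 difference of 0.85 (SE 0.44, edgeR adjusted p = 0.280). Atp6ap2, the prorenin receptor, was at 331 to 392 CPM against 592 and 337 CPM.

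Several V-ATPase subunits exist as isoforms from separate genes, and the reads per length show which of them these libraries held. The libraries also held reads of markers of other cell types, so the cells that carried an isoform are not known. For subunits B, C, E and G the broadly expressed isoform made up 96.5 to 100% of the summed RPKM of its family in every library. The other isoforms were near the floor: Atp6v1b1 had 7 reads, Atp6v1c2 12, Atp6v1e2 5 and Atp6v1g3 7 over the 5 libraries. A count of 0 allows up to 3 reads, which is 0.761 CPM in the smallest and 0.144 CPM in the largest library, for counting error only. Atp6v1g2 had 196 reads, 125 of them in intima replicate 2.

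For subunit a, no isoform gave more than 71.5% of its family in any library. Tcirg1, the a3 isoform known from the acid-secreting membrane of osteoclasts, was at 8.74, 18.3 and 22.1 RPKM in the adventitia and 19.995 and 36.04 RPKM in the intima. Atp6v0a1 was at 7.82, 8.87 and 8.57 RPKM against 17.8 and 12.1 RPKM. Tcirg1 thus gave 49.1, 64.6 and 71.5% of the family in the adventitia and 44.2 and 68.3% in the intima, with overlap between the groups. Atp6v0a2 was at 0.198 to 1.05 RPKM against 7.501 and 4.55 RPKM, and its adjusted p in edgeR was 0.215. Atp6v0a4 had 20 reads in all.

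For subunit d, Atp6v0d1 gave 86.5 to 99.5% of its family. Atp6v0d2, known from osteoclasts, split the intima libraries, with 309 reads (7.60 RPKM) in replicate 1 and 16 reads (0.283 RPKM) in replicate 2. For subunit e, Atp6v0e2 had 334 reads in intima replicate 2, none in intima replicate 1 and 1 to 6 reads in the adventitia libraries.

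**Figure D4:**
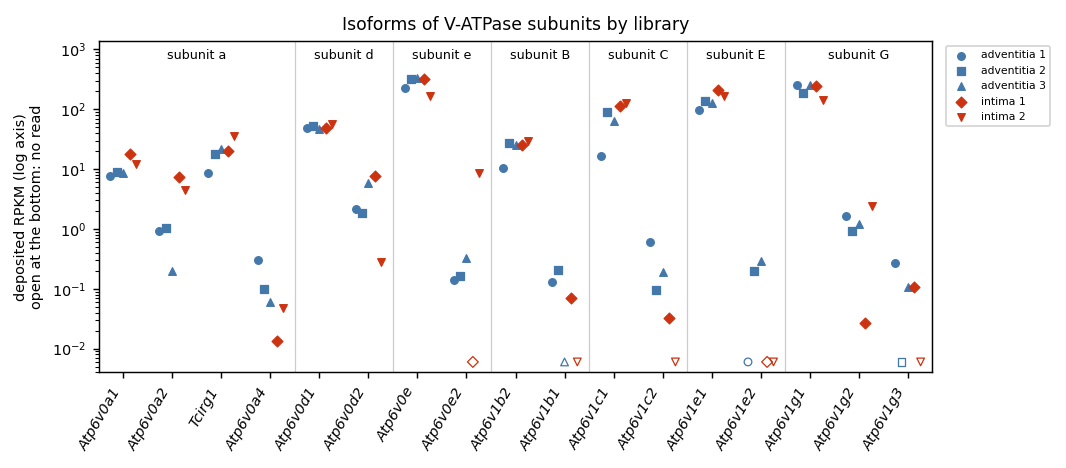
Deposited RPKM (y axis, log axis; open symbols at the bottom had no read) of every isoform of 7 V-ATPase subunits in the 3 adventitia (blue) and 2 intima (red) libraries. One isoform dominates for subunits d, e, B, C, E and G in every library, while for subunit a both Atp6v0a1 and Tcirg1 lie well above Atp6v0a4, with Tcirg1 the higher in all 5 libraries.

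The 2 intima libraries disagreed on some lysosomal genes. Their levels were more than 4-fold apart for 6 of the 53 genes (11.3%) and for 31.6% of all genes tested, while pairs of adventitia libraries were that far apart for 3.77 to 9.43% of the 53 and 12.1 to 17.1% of all. The 6 were Galns (54.7-fold), Smpd1 (34.5-fold), Arsb (13.9-fold), Neu1 (11.9-fold) and Atp6v1h (9.68-fold), all low in replicate 1, and Slc38a9, low in replicate 2. Intima replicate 2 was above replicate 1 for 20 of the 28 luminal genes, but for 7 of the 15 V-ATPase genes and 3 of the 10 membrane genes.

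**Figure D5:**
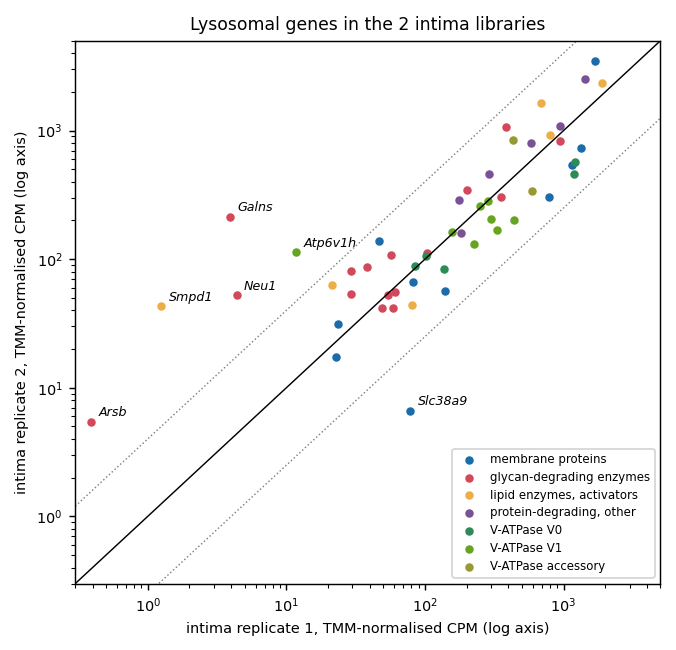
Level of each gene in intima replicate 1 (x axis) and intima replicate 2 (y axis), both TMM-normalised CPM on log axes, coloured by role; the solid line is equality and the dotted lines are 4-fold apart. Named genes lie outside the dotted lines, 5 above and 1 below.

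Other genes of the organelle were read alongside, from 5 lists drawn up by function. Of 25 further genes listed as luminal none was called, and their median log2 difference was 0.62. Hgsnat among them encodes an enzyme of the lysosomal membrane. In edgeR 10 of the 25 had an unadjusted p under 0.05, of which Hgsnat, Arsg and Naaa were lower in the intima and the rest higher. Of all genes tested, 8.16% were higher and 14.3% lower at that level. Both intima libraries were above the adventitia for 11 of the 25 and below for 4, where 17.7% and 23.2% of all genes tested were. Ctsa, the protective protein that holds Neu1 and Glb1 in a complex, was at 435, 395 and 514 CPM against 1156 and 1550 CPM. Its adjusted p in edgeR was 0.0868. Ctsa, Acp5, Naaa, Hgsnat and the TFEB-family factors below were named after their values were seen.

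Acp5, tartrate-resistant acid phosphatase, was at 9.85, 24.0 and 70.9 CPM against 266 and 404 CPM (adjusted p = 0.0765 in edgeR). Naaa, an amidase of fatty acid ethanolamides, was lower in both intima libraries, at 202 to 255 CPM against 110 and 110 CPM, and so was Hgsnat, which acetylates heparan sulfate, at 48.8 to 77.6 CPM against 16.6 and 10.7 CPM. Neither passed the edgeR test (adjusted p = 0.175 and 0.142). Arsg, a sulfatase, had 22, 101 and 5 reads in the adventitia and 1 and 0 reads in the intima.

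The remaining lists also held no gene called by edgeR. Their counts at an unadjusted p under 0.05 in edgeR pool both directions. They stand beside 8.16% higher and 14.3% lower in the intima over all genes tested. The 27 tested membrane proteins outside the set had a median of 0.36 and 2 at an unadjusted p under 0.05, and Mcoln2, a relative of Mcoln1, was at 1.43 to 16.2 CPM against 0.0784 and 1.06 CPM. The 13 tested further V-ATPase genes had a median of 0.55, with 2 at an unadjusted p under 0.05. The 19 genes for tagging and delivering enzymes had a median of 0.41, with 3 at an unadjusted p under 0.05, among which Ap1m1, of the clathrin adaptor at the trans-Golgi, was at 8.75 to 34.5 CPM against 130 and 117 CPM (adjusted p = 0.0875 in edgeR).

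The 23 tested genes of TFEB-family factors and nutrient sensing had a median log2 difference of -0.03, with 1 at an unadjusted p under 0.05. Tfeb was at 25.4, 3.04 and 0.901 CPM against 13.1 and 19.1 CPM, Tfe3 at 47.9 to 88.0 CPM against 93.0 and 30.2 CPM, and Mitf at 36.2 to 67.6 CPM against 84.2 and 64.5 CPM. The ranges of all 3 factors overlap. Tsc2, a brake on mTORC1, had the largest difference of that list, at 1.81 to 7.91 CPM against 41.9 and 17.8 CPM (adjusted p = 0.229 in edgeR).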

How the data were processed

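Poly-A RNA of sorted aortic macrophages was amplified with the SMARTer Ultra Low kit and sequenced as single reads of 50 bases, per the labels' protocols. The authors deposited 1 table per library. Per the submitters' processing notes, GRCm38 was the build and featureCounts 1.4.5, Subread and STAR 2.0.4b were among the tools. Strand setting and annotation release are not given in the sources used here. The deposited count values were whole numbers of reads for each gene. The deposited CPM and RPKM columns equalled values recomputed from the counts (0 mismatches at a tolerance of 1e-06), so they carry no further normalization. A gene name table gave symbols for 40254 of the 41388 Ensembl IDs.

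Counts were tested with edgeR 4.0.16 in R 4.3.3 (filterByExpr with a minimum count of 10 and total of 15, TMM, glmQLFit and glmQLFTest, group only, all 5 libraries), with Benjamini-Hochberg adjustment over all 13408 genes tested. A standard error is the log2 difference over the square root of F. CPM in the text uses TMM-adjusted totals. Alternatives used DESeq2 1.42.0, limma 3.58.1, other scalings and filters, thinned counts, a replicate block and each library left out.

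The genes and lists were chosen with earlier results of these data known. Statistics were printed, by a rule on role, for the largest difference in each direction and the highest mean RPKM of each of 7 role groups. From each further list the gene with the largest absolute difference was named, and other genes were named to complete the account of a role. Python 3.11.15 with pandas 2.3.3 did the joins.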

Additional observations from a re-analysis of the deposited data

How the results depend on the processing

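The median log2 difference of the 53 genes stayed above 0 under all 15 alternatives (with 1 CPM in every library of a group, 52 of the 53 were tested). With library size alone it was 0.41, with upper-quartile scaling 0.13 and with thinned counts 0.22. It was 0.44 to 0.68 with 1 library left out. The number of all genes called higher and lower in the intima was 46 higher with upper-quartile scaling, 34 lower with library size alone, 501 and 1658 with DESeq2 and its own filter, and 500 and 725 with DESeq2 on the genes edgeR tested, a setting chosen after seeing the data. It was 214 and 625 with limma voom, 312 and 74 with every gene with a read, 135 and 261 with 1 CPM in every library of a group, and 31 lower with thinned counts. With 1 library left out it ran from 9 to 229 higher and 1 to 160 lower. Lysosomal genes called higher numbered 1 with DESeq2 on the tested genes and with limma voom, 5 with every gene with a read and 0 to 4 with 1 library left out, and 0 were called lower in any setting. Those whose ranges do not overlap were 15 higher and 3 lower for library size alone, 13 and 4 for upper-quartile scaling, 15 and 4 with thinned counts, 3 lower with RLE scaling, 0 lower with every gene with a read and 3 lower with 1 CPM in every library of a group. They were 26 to 38 higher and 1 to 11 lower with 1 library left out, against 21.2 to 32.4% and 24.1 to 43.8% of all genes.

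The deviations of same-numbered libraries from their group means correlated at 0.0329 and 0.000629. These values cannot decide whether such libraries were paired, because both rest on the same difference between the 2 intima libraries. With the replicate number as a block, 133 genes were called higher and 50 lower, and 0 of the 53. Log2 differences near 0 changed sign. Cd63 was at -0.10 with upper-quartile scaling and -0.024 with thinned counts, and Atp6v0b at -0.18 and -0.055. Keeping every gene with a read put Lamp1 at 0.035, Atp6v0e at 0.17 and Atp6v1f at 0.14, and the block put Atp6v0e at 0.059. With 1 library left out the log2 difference ran from -1.16 to 0.44 for Lamp1, from -0.41 to 0.91 for Cd63, from -4.61 to 1.34 for Arsb and from -1.88 to 3.67 for Galns. It ran from -0.71 to 0.90 for Atp6v0b, from -0.81 to 0.50 for Atp6v0e, from -0.88 to 0.47 for Atp6v1f and from -2.67 to 0.38 for Atp6v1h. The cause was not tested.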
